A study of Danio rerio with 28 samples.

Results

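The early injury response of the thraa+/- zebrafish heart was read from 4 RNA-seq libraries of the 28 in the series: 2 of the injured zone 8 h after resection of the ventricular apex (8 hours post-injury, 8 hpi) and 2 of the uninjured ventricular apex. They were chosen by genotype and time alone. The series followed heart regeneration after apical resection, in which about 20% of the ventricle is cut away, in WT and thraa+/- fish at 6 times (uninjured, 8 hpi and 1, 3, 7 and 15 days post-injury, dpi), with 2 libraries per genotype and time, 24 in all. Fish were 4 to 6 months old, and at least 5 of them were pooled in a library. The thraa+/- line is a CRISPR line with an insertion that truncates the ligand-binding domain of thyroid hormone receptor alpha a. The sample labels call it a thraa knockout and the study calls it thraa+/-, and WT fish carried no such allele. No drug or other agent was given beyond the anaesthetic used for surgery. Injured zone and intact apex are different pieces of tissue, so part of each difference below can reflect which piece was taken, and the 2 cannot be told apart. Whether the hearts were collected at the same clock time is not given in the sources used here.

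Thyroid hormone receptors are nuclear receptors that sit on DNA with or without hormone and recruit coactivators or corepressors accordingly. In the heart, thyroid hormone is known for driving cardiomyocyte maturation and oxidative metabolism. The zebrafish ventricle replaces resected muscle through a fibrin clot, a wave of neutrophils and then macrophages, activation of epicardium and endocardium, and division of remaining cardiomyocytes. The hours after injury belong to the clot and the inflammatory phase, before cardiomyocytes divide.

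Total counts in the 4 libraries ran from 14469677 to 15305244, and over the 24 time-course libraries from 13692204 to 18775025. Levels are counts per 1000000 (CPM) after scaling by the trimmed mean of M values (TMM), in the order library 1 and library 2. Fold changes are on the log2 scale, n = 2 libraries a group. The ± value is the absolute fold change divided by the square root of the F statistic of edgeR's quasi-likelihood test. It stands in for an SE and is not a spread measured between the 2 libraries. A gene was called when its Benjamini-Hochberg adjusted p from edgeR's quasi-likelihood test was below 0.05 and its fold change was at least 1 on the log2 scale in either direction. With 2 libraries against 2 the smallest p of an exact permutation test is 0.333, so the calls rest on the spread pooled over all 12 groups. The thraa+/- pair at 8 hpi lay further apart than the other pairs (SD 0.375 against 0.210 to 0.316, below). The ± values and p values can therefore understate the spread between its libraries. Many symbols are written in capitals in the annotation used and can be shared by zebrafish paralogs; where a named symbol is shared by tested genes, the Ensembl identifier is given. The libraries carried cardiac muscle markers at high level: MYL7, the regulatory myosin light chain of the zebrafish heart, read 31800 and 30800 CPM uninjured and 14500 and 17500 CPM at 8 hpi.

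The transcript level of thraa (ENSDARG00000000151) was low in every library. It read 4.58 and 3.16 CPM in the uninjured thraa+/- apex and 4.35 and 3.61 CPM at 8 hpi, against 4.80 and 5.51 CPM, then 3.13 and 3.61 CPM, in WT. The thraa+/- libraries overlapped before and after injury (change 0.04 ± 0.28, adjusted p = 0.91), as did the genotypes at 8 hpi, while both uninjured thraa+/- libraries lay below both uninjured WT libraries. A small insertion need not change the count of its gene, so this level does not check the labels.

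The 2 libraries at 8 hpi differed from each other more than any other pair in the time course. The SD of their difference in log2(CPM + 1) over the genes tested was 0.375, against 0.210 to 0.316 in the other 11 pairs. On that scale 320 genes lay more than 2-fold apart, against 12 to 158 in the others. Relative to counting error, the squared difference was 23.9 times what counting alone gives, against 8.68 in the WT pair at 8 hpi and 1.88 to 5.80 elsewhere. Unlike the SD, this ratio was taken on counts scaled by library totals and not by TMM. With 0.5 CPM added in place of 1, which shrinks low genes less, more genes passed 2-fold. Of 14120 genes with at least 1 CPM in either library, 509 were then at least 2-fold higher in library 1 and 92 in library 2.

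The difference followed gene length. Over 10862 genes split into 8 groups of equal size by effective length, the median log2 ratio of library 2 to library 1 went from 0.40 in the shortest eighth to -0.14 in the longest. In the WT pair at 8 hpi it went from 0.15 to -0.06, and in the uninjured thraa+/- pair it lay between -0.03 and -0.01. What set the difference was not tested.

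**Figure D1:**
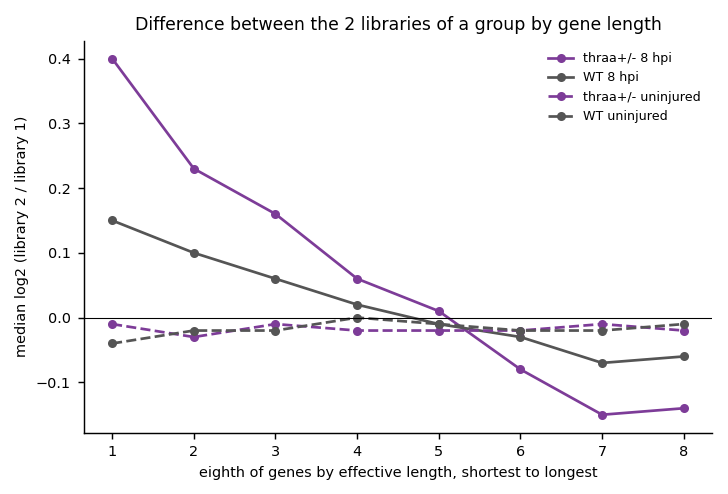
Median log2 ratio of library 2 to library 1 within a group (y axis) in 8 groups of genes ordered from the shortest to the longest effective length (x axis), for thraa+/- and WT, uninjured and at 8 hpi. The thraa+/- pair at 8 hpi falls from 0.40 to -0.14, the WT pair at 8 hpi from 0.15 to -0.06, and both uninjured pairs stay near 0.

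Named genes show both ends of this difference. UGP2 (ENSDARG00000005578), which makes UDP-glucose for glycogen, read 27.0 and 3.09 CPM in the 8 hpi libraries, DMXL1, a subunit of a complex that assembles the vacuolar proton pump, 25.4 and 7.29 CPM, and nup214, a nucleoporin, 17.1 and 4.34 CPM. MBD5 (10.2 and 2.35 CPM), the transcriptional cofactor LDB1 (ENSDARG00000103158, 12.3 and 2.87 CPM) and the thrombin receptor F2R (ENSDARG00000059507, 14.1 and 3.83 CPM) were also higher in library 1. In the other direction, rn7sl1, the RNA of the signal recognition particle, read 4.42 and 103 CPM. RPS29, a small ribosomal protein, read 247 and 487 CPM, OST4, a small subunit of the oligosaccharyltransferase, 13.9 and 28.8 CPM, the spliceosomal protein SNRPF 11 and 23.5 CPM, STK19 (ENSDARG00000101693) 5.29 and 12.7 CPM, and nkl.2, an NK-lysin of cytotoxic lymphocytes, 6.16 and 12.4 CPM. Short transcripts thus lay on the library 2 side. Summed over 82 cytosolic ribosomal protein genes, the level was 61000 CPM in library 1 and 86900 CPM in library 2, against 92600 and 91100 CPM uninjured. Their median change was -0.32, which turned to 0.14 with total counts alone as the scaling, and 1 of 81 tested was called, with 4 lower without library 2.

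The 8 hpi pair was next set against the uninjured pair. Of 17837 genes tested, 5435 were called (30.5%): 3130 were higher at 8 hpi (17.5%) and 2305 lower (12.9%). In 5398 of these the 4 libraries did not overlap between the groups, and 37 overlapped. Calling on the same 4 libraries largely sets this split, and the same count over all 17837 genes was not made. Taken alone, with 0.5 CPM added, library 1 moved in the called direction in 5432 of the genes called and library 2 in 5430. They passed 2-fold in 4584 and 4423. The genes were called from these same libraries, so such counts are nearly set by the selection and do not show that the 2 libraries agree. Refitted without library 1, 4515 genes stayed called in the same direction, and without library 2, 4712. Scaling by total counts alone shifted the median of all genes by 0.48 (from 0.04 to 0.52), and the share of called genes that were higher went from 57.6% to 80.2%. With limma on the authors' transcripts per 1000000 (TPM) the share was 79.4%. Changes below are therefore relative to the TMM scale, and lists whose direction rests on it are named. Counts called in a list are to be read beside the shares of all genes tested: 30.5% called, 17.5% higher and 12.9% lower.

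**Figure D2:**
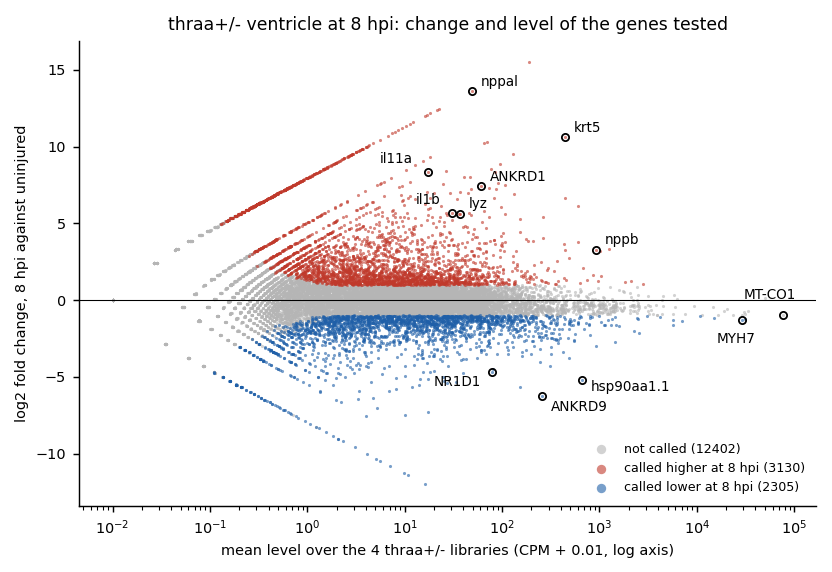
Log2 fold change at 8 hpi against uninjured (y axis) and mean level over the 4 thraa+/- libraries in CPM plus 0.01 on a log axis (x axis), each point 1 of 17837 tested genes, with 3130 called higher in red and 2305 called lower in blue. The straight streaks at the left are genes at or near 0 in 1 of the groups, whose fitted fold change depends on the prior count.

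The 12 largest rises among genes with a symbol and at least 10 CPM were all in genes with no count in either uninjured library. For these the ratio is a lower bound against a floor of 3 counts per library (0.301 CPM). mhc1uba, a class I MHC gene that presents peptides to T cells, read 357 and 390 CPM at 8 hpi, at least 1200-fold higher. Its mean was 342 CPM in WT at 8 hpi. In every other group of either genotype, uninjured or later, its mean was at most 0.05 CPM, and what set this pattern was not tested. nppal, a natriuretic peptide gene, read 85.3 and 111 CPM, at least 320-fold higher. cd44a, a receptor for hyaluronan, read 35.3 and 38 CPM, at least 120-fold higher.

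Epithelial genes filled much of the rest of that group. epcam, an epithelial adhesion molecule, read 28.4 and 36.4 CPM at 8 hpi, muc5.2, a gel-forming mucin, 42.0 and 42.9 CPM, and the keratin krt97 20.7 and 20.2 CPM. The tight-junction claudins cldna (20.1 and 25.8 CPM) and cldne (14.8 and 14.9 CPM), with jac4, ntrnl2, gpa33a (whose mammalian namesake is an intestinal epithelial antigen) and nlrc11, a member of the NLR family of immune sensors, completed the 12. All 12 were also called higher in WT at 8 hpi. nlrc11 did not keep its level in thraa+/-: its means were 0 CPM at 1 and 3 dpi, 28.6 CPM at 7 dpi and 0.0589 CPM at 15 dpi.

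Among the 12 largest falls, 4 genes had no count in either 8 hpi library. FIBIN (ENSDARG00000039949), named after the fin bud initiation factor, read 13.7 and 14.4 CPM uninjured and 0 at 8 hpi. mhc2dab, a class II MHC beta chain gene, went from 21.3 and 21.8 CPM to 0, at least 100-fold lower. Both genes listed as GGACT, a gamma-glutamylamine cyclotransferase, also went to 0, from 31.1 and 34.3 CPM (ENSDARG00000038248) and from 19.8 and 19.5 CPM (ENSDARG00000070581). All 4 were present again in thraa+/- at 1 dpi. Their means were then 11.8 CPM for FIBIN, 59.4 CPM for mhc2dab, and 34.9 and 22.9 CPM for the GGACT genes. What set the absence at 8 hpi was not tested.

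Others fell from high levels without reaching 0. ANKRD9 fell from 515 and 506 CPM to 6.36 and 6.92 CPM (-6.27 ± 0.12), and SLC7A9, an amino acid transporter, from 55.2 and 51.2 CPM to 0.87 and 1.62 CPM. FHL2 (ENSDARG00000003991), a LIM-domain protein of heart muscle, fell from 27.0 and 28.3 CPM to 0.469 and 0.736 CPM. PPP1R3G, which targets a phosphatase to glycogen, CCDC39, needed for ciliary dynein arms, the collagen-binding integrin ITGA10 and the fibrinogen-like fgl2b made up the rest with PAOX (ENSDARG00000003380), a polyamine oxidase. The PAOX call rested on 1 uninjured library, at 38.9 CPM against 0.814 CPM in the other, and was lost without that library (adjusted p = 0.70) and without either 8 hpi library (adjusted p = 0.16 and 0.17). Of the 12, 9 were called lower in WT.

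Inflammatory cytokine genes rose at 8 hpi. Of 42 tested members of a list of cytokines and NF-kB regulators, 26 were called higher and 0 lower, with a median log2 fold change of 2.52, or 1.59 with genes at the floor set to their bound, beside 0.04 for all genes. il1b, the interleukin that starts much of the acute response, went from 1.02 and 1.28 CPM to 59 and 61 CPM (5.70 ± 0.22, adjusted p = 7.2e-25). csf3b, a growth factor for neutrophils, went from 0 and 0.198 CPM to 6.76 and 9.49 CPM, at least 27-fold higher. tnfb, a tumour necrosis factor gene, rose from 0.509 and 0.395 CPM to 5.29 and 6.18 CPM (3.64 ± 0.43).

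Regulators downstream of these cytokines rose too. nfkbiaa, an inhibitor that holds NF-kB in the cytoplasm, rose from 15.1 and 15.1 CPM to 71.3 and 99.6 CPM (2.5 ± 0.12), and bcl3, a nuclear cofactor of NF-kB, from 1.02 and 1.48 CPM to 18.9 and 13.2 CPM. PTGS2 (ENSDARG00000004539), which makes prostaglandin H, rose from 10.9 and 9.49 CPM to 68 and 66.6 CPM. il34, a ligand of the macrophage growth factor receptor, rose from 7.43 and 6.92 CPM to 38.1 and 45.6 CPM. In each of these genes both 8 hpi libraries lay above both uninjured ones. The groups did not overlap in 5398 of the 5435 genes called, so choosing called genes nearly sets this. BIRC2, an inhibitor of cell death, was not called, at 200 and 185 CPM uninjured and 209 and 250 CPM at 8 hpi.

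The IL-6 family ligands named here, which signal through the shared receptor il6st to STAT3, were at or near 0 before injury. Of 25 tested members of a list of IL-6 family signalling genes, 17 were called higher and 0 lower (median 2.1, or 1.49 with bounds). That list is not limited to ligands: its sums were 2050 and 2040 CPM uninjured, and 6 members were at the floor there. il11a went from 0.204 and 0 CPM to 43.0 and 26.6 CPM, at least 110-fold higher. il11b and m17, the zebrafish relative of leukaemia inhibitory factor, were at 0 in both uninjured libraries and at 8.03 and 3.24 CPM, and 6.43 and 4.19 CPM, at 8 hpi. il6 itself stayed low, at 1.14 and 0.589 CPM at 8 hpi against 0 and 0.0988 CPM, at least 2.8-fold higher, and its call was lost without 8 hpi library 1 (adjusted p = 0.06) or uninjured library 1 (adjusted p = 0.073).

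Receptors and feedback genes of the same family also moved, and they need not be separate from the list count above. The shared receptor il6st rose from 80.2 and 78.1 CPM to 232 and 238 CPM (1.57 ± 0.07), and il6r from 2.65 and 2.17 CPM to 24.3 and 23.3 CPM. SOCS3 (ENSDARG00000026611), a feedback inhibitor that STAT3 induces, rose from 27.4 and 27.0 CPM to 384 and 397 CPM (3.84 ± 0.08, adjusted p = 5.5e-35). Its paralog ENSDARG00000025428 went from 715 and 734 CPM to 988 and 1060 CPM, a change of 0.50 ± 0.06 that was under the fold cutoff. STAT3 was called, but its 8 hpi libraries were 38 and 12 CPM against 7.43 and 4.35 CPM, so the size of the rise differed by library. CEBPB, a transcription factor of the acute-phase response, rose from 78.1 and 72.2 CPM to 374 and 472 CPM (2.49 ± 0.08).

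**Figure D3:**
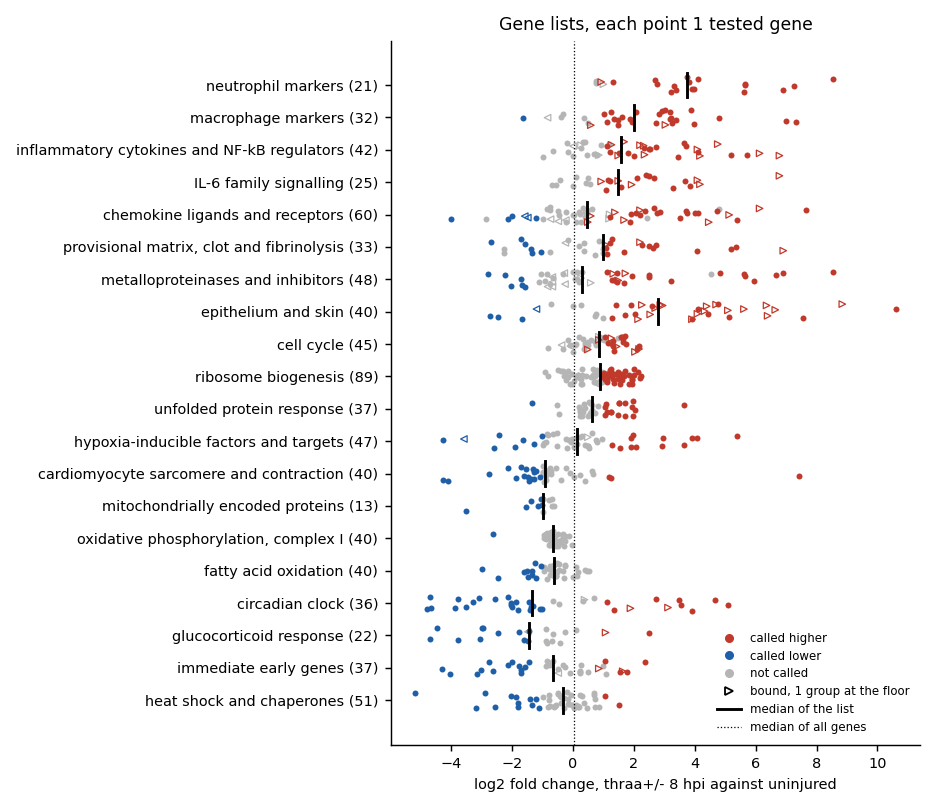
Log2 fold change at 8 hpi against uninjured (x axis) of the tested members of 20 gene lists (rows, number tested in brackets), each point 1 gene; open triangles are genes at the floor in 1 group, drawn at their bound. Neutrophil markers have the highest median of these lists (bar) and glucocorticoid response genes the lowest, and the dotted line at 0.04 is the median of all genes.

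Neutrophil markers rose as a block. Of 21 tested, 18 were called higher and 0 lower (median 3.82, or 3.75 with bounds), and their summed level went from 629 and 605 CPM to 2390 and 2770 CPM. The counts were 18 and 0 without either 8 hpi library. lyz, the lysozyme of neutrophils and macrophages, rose from 1.32 and 1.58 CPM to 58.9 and 87.0 CPM (5.64 ± 0.28, adjusted p = 1.0e-14). npsn, a zebrafish neutrophil protease, rose from 2.85 and 3.85 CPM to 43.6 and 51.1 CPM, and illr4, an immune lectin-like receptor, from 0.611 and 0.593 CPM to 78.9 and 110 CPM.

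The phagocyte oxidase, which makes superoxide in neutrophils and macrophages, rose in each subunit named. NCF1 went from 10.1 and 9.49 CPM to 95.7 and 108 CPM, cybb from 11.5 and 9.19 CPM to 166 and 144 CPM, and cyba from 6.41 and 9.49 CPM to 94.7 and 120 CPM. SPI1, the transcription factor that defines myeloid cells, rose from 3.77 and 3.66 CPM to 59.4 and 56.5 CPM (3.96 ± 0.14). In a bulk library, more cells of a type and more RNA per cell cannot be told apart.

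Macrophage markers rose too, with 26 of 32 called higher and 1 lower (median 2.78, or 2.01 with bounds). Their summed level went from 713 and 712 CPM to 1890 and 2140 CPM. marco, a scavenger receptor, rose from 12.2 and 11.8 CPM to 78.5 and 102 CPM (2.91 ± 0.12). MPEG1, a pore-forming protein used as a macrophage reporter, rose from 7.74 and 9.29 CPM to 25.8 and 26.6 CPM (ENSDARG00000055290) and from 12.2 and 8.89 CPM to 20.8 and 22.4 CPM (ENSDARG00000043093, called, but at 0.98 without 8 hpi library 2 and 0.86 without uninjured library 2). ACOD1, which makes itaconate in activated macrophages, rose from 3.05 and 2.67 CPM to 86.6 and 74.3 CPM.

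Lipid-handling, lysosomal and complement genes of macrophages were in the same set. apoeb, an apolipoprotein, rose from 1.12 and 0.692 CPM to 126 and 164 CPM (7.31 ± 0.15), the granulin gene grna from 18.2 and 18.3 CPM to 173 and 173 CPM, and ctss2.1, a cathepsin S, from 8.85 and 10.7 CPM to 125 and 159 CPM. The mannose receptor mrc1b rose from 8.96 and 11.5 CPM to 116 and 95.2 CPM, while the gene listed as MRC1 was at 1.63 and 2.47 CPM and then 3.61 and 2.13 CPM and was not called. c1qa, c1qb and c1qc, the chains of complement C1q, rose by 1.35, 1.94 and 1.86 on the log2 scale. IRF8, the transcription factor that directs cells to the macrophage fate, rose from 3.46 and 4.94 CPM to 25.6 and 30.5 CPM. The member that fell was cd74a, the invariant chain of class II MHC, from 187 and 195 CPM to 53.5 and 69.7 CPM (-1.64 ± 0.08).

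Lymphocyte markers were low throughout, with sums of 22.2 and 21.1 CPM uninjured and 23.2 and 32.1 CPM at 8 hpi, and 6 of 17 were called higher and 1 lower, with 3 higher without 8 hpi library 2 or uninjured library 2. nkl.2 rose from 0.102 and 0.0988 CPM to 6.16 and 12.4 CPM, at least 30-fold higher. ighm, the immunoglobulin heavy chain, fell from 7.63 and 9.09 CPM to 3.21 and 3.46 CPM. The call for the B-cell gene cd79b rested on library 2, at 0.736 CPM, with 0 CPM in the other 3. Of 25 interferon-response genes, 8 were called higher and 1 lower (36.0% called, beside 30.5% of all genes tested, and 32.0% higher, beside 17.5%). Among them gbp1, a guanylate-binding GTPase, rose from 6.72 and 5.93 CPM to 26.2 and 31.0 CPM, and the immunoproteasome subunit PSMB8 (ENSDARG00000001303) from 7.63 and 9.19 CPM to 34.9 and 38.3 CPM. The antiviral GTPase mxc rose from 0.712 and 0.296 CPM to 3.48 and 4.49 CPM, and CMPK2, a mitochondrial nucleotide kinase, fell.

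Of 60 chemokine ligands and receptors tested, 25 were called higher and 6 lower (median 0.56, 0.47 with bounds). The neutrophil attractants cxcl8a, cxcl8b.1 and cxcl18b were among those that rose. cxcl8a went from 0.611 and 0.889 CPM to 10.6 and 15.9 CPM (4.12 ± 0.33), cxcl8b.1 from 0.102 and 0.296 CPM to 20.1 and 22.2 CPM, at least 70-fold higher, and cxcl18b from 15.6 and 12.8 CPM to 164 and 210 CPM (3.72 ± 0.12). ccl34a.4, a CC chemokine, rose from 0.305 and 1.48 CPM to 157 and 205 CPM. Those that fell were of low level, the largest being ccl33.3, from 3.77 and 4.35 CPM to 0.201 and 0.294 CPM.

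Matrix-degrading enzymes and their inhibitors split by member. Of 48 tested, 20 were called higher and 6 lower (median 1.00, or 0.30 with bounds). MMP9, the gelatinase of neutrophils and macrophages, rose from 3.66 and 4.94 CPM to 204 and 215 CPM (5.6 ± 0.12), and mmp13a, a collagenase, from 0.509 and 0.296 CPM to 143 and 164 CPM (8.55 ± 0.26). adam8a, a myeloid surface protease, rose from 2.04 and 2.37 CPM to 276 and 249 CPM. TIMP2 (ENSDARG00000075261), an inhibitor of these enzymes, rose from 8.96 and 8.20 CPM to 892 and 845 CPM (6.66 ± 0.10). MMP2, the gelatinase of mesenchymal cells, fell from 129 and 128 CPM to 20.1 and 17 CPM (-2.79 ± 0.08), and MMP23B from 93.9 and 91.8 CPM to 27.4 and 30.0 CPM.

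Genes of the provisional matrix, clot and fibrinolysis were called higher in 15 of 33 and lower in 6 (median 0.98). plaua, a plasminogen activator, rose from 0.814 and 0.395 CPM to 24.6 and 25.2 CPM (5.35 ± 0.23). HAS1, a hyaluronan synthase, rose from 0.204 and 0.494 CPM to 14.5 and 11.5 CPM, and FN1 (ENSDARG00000019815), fibronectin, from 18.6 and 17.1 CPM to 105 and 95.6 CPM. f3b, a tissue factor gene, fell from 214 and 222 CPM to 31.6 and 35.8 CPM (-2.70 ± 0.08). Both genes listed as POSTN, periostin of fibroblast matrix, fell: ENSDARG00000104267 from 42.5 and 42.4 CPM to 14.3 and 14.0 CPM, and ENSDARG00000043806 from 26.9 and 23.6 CPM to 7.97 and 7.51 CPM.

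Collagens divided into low genes that appeared and high genes that fell, with 8 of 38 called higher and 9 lower, and a median of -0.33 that became 0.08 with total counts alone. The share called was 44.7%, beside 30.5% of all genes tested, and the share higher 21.1%, beside 17.5%. COL12A1 (ENSDARG00000019601), a fibril-associated collagen, was at 0 uninjured and at 6.76 and 4.34 CPM at 8 hpi, at least 18-fold higher. col17a1b and col7a1, collagens of the epidermal basement membrane, were also at 0 uninjured and at 7.90 and 4.86 CPM, and 4.42 and 3.16 CPM, at 8 hpi. COL6A3, a chain of the beaded collagen VI of fibroblasts, fell from 143 and 123 CPM to 17.4 and 14.2 CPM (-3.07 ± 0.09), and COL6A2 from 91.0 and 81.0 CPM to 20.1 and 16.3 CPM.

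Markers of epithelium and skin, which cover the chest opened to reach the heart, rose in 30 of 40 tested and fell in 4 (median 4.61, or 2.78 with bounds). krt5, a basal keratin, went from 0.814 and 0.296 CPM to 837 and 919 CPM (10.62 ± 0.16, adjusted p = 2.4e-39), and PKP1, a desmosome protein, from 0.204 and 0 CPM to 141 and 136 CPM, at least 460-fold higher. The summed level of the list did not rise, at 6040 and 5900 CPM uninjured and 4350 and 5080 CPM at 8 hpi, and it is dominated by keratins present before injury. Of these krt94 fell from 2550 and 2470 CPM to 333 and 427 CPM, and krt15 from 676 and 651 CPM to 109 and 133 CPM, while krt4 went from 161 and 141 CPM to 280 and 321 CPM. WT rose in 30 and fell in 4 as well. How much of the krt5 rise came from heart tissue was not tested.

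Markers of thrombocytes and erythrocytes differed in how far they moved. Thrombocyte genes were called higher in 6 of 14 (42.9%, beside 17.5% of all genes tested) and lower in 0 (median 1.11). Their sums were 192 and 189 CPM uninjured, then 458 and 456 CPM. Coagulation factor f5 rose from 4.89 and 3.06 CPM to 100 and 99.3 CPM, and FERMT3 (ENSDARG00000030938), an integrin activator, from 1.83 and 1.78 CPM to 25 and 24.8 CPM. The defining integrin itga2b was at 10.9 and 12.3 CPM, then 13.1 and 12 CPM, and was not called. Erythrocyte genes were called higher in 3 of 19 (15.8%, beside 17.5% of all genes tested), with sums of 5350 and 5360 CPM, then 4990 and 6380 CPM. The globin hbaa1 read 4370 and 4400 CPM uninjured and 3780 and 5110 CPM at 8 hpi, overlapping.

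Markers of other tissues near the heart or beyond it were also counted, and their source was not tested. Of 32 skeletal muscle genes 1 was called higher and 15 lower, and pvalb2, the fast-muscle parvalbumin, went from 1.63 and 1.58 CPM to 0. The sum of that list, 65000 and 64100 CPM uninjured and 56000 and 64400 CPM at 8 hpi, includes genes that the heart expresses, such as ckma, the muscle creatine kinase, at 7530 and 7430 CPM and then 3470 and 4570 CPM. Liver and exocrine pancreas genes were called higher in 3 of 21 (1 without 8 hpi library 1 or uninjured library 2) and lower in 7, with sums of 368 and 371 CPM and then 98 and 119 CPM. fabp10a, a liver fatty-acid binding protein, went from 1.53 and 1.48 CPM to 0.

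Sarcomere and contraction genes of cardiomyocytes fell. Of 40 tested, 3 were called higher and 16 lower (median -0.92, and -0.45 with 4 higher and 9 lower with total counts alone). Their summed level went from 195000 and 194000 CPM to 86300 and 107000 CPM. MYH7 (ENSDARG00000079782), a cardiac myosin heavy chain, fell from 40800 and 41600 CPM to 15500 and 18100 CPM (-1.29 ± 0.07), and actc1a, cardiac actin, from 44100 and 44000 CPM to 16300 and 21400 CPM (-1.22 ± 0.08). MYBPC3, the myosin-binding protein of the thick filament, fell from 8210 and 8090 CPM to 3470 and 3270 CPM. MYL7 changed by -0.97 ± 0.07 and tnnc1a, cardiac troponin C, by -0.99 ± 0.07, just short of the fold cutoff.

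Some cardiomyocyte stress genes rose. ANKRD1, a stretch-responsive protein of the sarcomere, rose from 0.916 and 0.494 CPM to 110 and 130 CPM (7.41 ± 0.19). nppb, the B-type natriuretic peptide released by strained myocardium, rose from 166 and 179 CPM to 1460 and 1890 CPM (3.28 ± 0.08), and nppc, the C-type peptide, from 0.509 and 0.593 CPM to 31.8 and 40.1 CPM. nppa, the A-type peptide, rose from 1830 and 1740 CPM to 3510 and 4030 CPM (1.08 ± 0.07), under the cutoff at 0.98 without library 2. DES, desmin of the intermediate filaments, rose from 1110 and 1100 CPM to 2320 and 2700 CPM. Uninjured means of these genes were lower in thraa+/- than in WT. They were 0.705 against 7.74 CPM for ANKRD1, 173 against 1270 CPM for nppb and 0.551 against 16.3 CPM for nppc. For nppa they were 1790 against 3770 CPM, and for DES 1110 against 1620 CPM. Of 20 cardiac transcription factors and natriuretic peptides 5 were called higher and 2 lower (3 and 2 without 8 hpi library 1, and 8 and 0 with total counts alone), GATA6 falling from 78.9 and 78.3 CPM to 39.6 and 35.7 CPM (-1.06 ± 0.09, and -0.98 without library 2).

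Ion channel and transporter genes of the heart were called higher in 4 of 24 and lower in 8 (median -0.35, 0.14 with total counts alone). kcnh6a, the potassium channel of zebrafish repolarisation, rose from 126 and 128 CPM to 910 and 773 CPM (2.73 ± 0.07). JPH2, which holds the junction of plasma membrane and sarcoplasmic reticulum, fell from 117 and 118 CPM to 26.6 and 28.7 CPM, and the T-type calcium channel CACNA1G from 37.9 and 41.1 CPM to 8.97 and 10.9 CPM.

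Epicardial genes split evenly on the TMM scale, with 4 of 16 called higher and 4 lower (median 0.11). With total counts alone 6 were higher and 3 lower (median 0.59). wt1b, a marker of activated epicardium, rose from 0.916 and 0.593 CPM to 12.5 and 11 CPM (3.95 ± 0.27), and ALDH1A2, which makes retinoic acid, from 69.5 and 63.2 CPM to 253 and 247 CPM (1.91 ± 0.07). podxl, podocalyxin of the mesothelial surface, fell from 539 and 506 CPM to 124 and 115 CPM, and CAV1 from 297 and 295 CPM to 125 and 121 CPM. Endothelial and endocardial genes were called higher in 3 of 38 and lower in 8 (median -0.24), which with total counts alone became 8 and 1 with a median of 0.25, while 5 were lower without 8 hpi library 2 and 5 higher without uninjured library 2. On the TMM scale 28.9% of the endothelial and endocardial genes were called, beside 30.5% of all genes tested. kdrl, a VEGF receptor, fell from 309 and 302 CPM to 149 and 126 CPM (-1.15 ± 0.07), while cdh5, the endothelial cadherin, went from 293 and 284 CPM to 180 and 203 CPM (-0.59 ± 0.07). CLDN5 (ENSDARG00000014059), a claudin, rose from 17.8 and 18.2 CPM to 112 and 126 CPM. Smooth muscle and fibroblast genes were called higher in 2 of 33 and lower in 10 (median -0.45), and with total counts alone in 7 and 5 (median 0.03), with 4 higher without 8 hpi library 2. PRRX1 (ENSDARG00000033971), a mesenchymal transcription factor, rose from 3.05 and 4.35 CPM to 10.7 and 11.8 CPM.

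Of 57 growth factors and receptors linked to regeneration, 18 were called higher and 7 lower (median 0.54, or 0.49 with bounds). HBEGF (ENSDARG00000031246), a ligand of the EGF receptor family, rose from 0.916 and 0.395 CPM to 41.8 and 51.9 CPM (6.15 ± 0.25), and lepb, a leptin that marks injured zebrafish tissue, from 0 to 6.09 and 7.36 CPM, at least 22-fold higher. INHBB, an activin subunit, fell from 67.7 and 64.0 CPM to 1.54 and 1.77 CPM (-5.31 ± 0.16), and BMP10 (ENSDARG00000109233), an endocardial and trabecular ligand, from 206 and 212 CPM to 24 and 20.5 CPM.

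Mitochondrial energy genes had medians below 0 on the TMM scale, with few members called outside the mitochondrial genome. Of the 13 proteins encoded by mitochondrial DNA 6 were called lower (median -1.0, and 2 lower with total counts alone), with sums of 323000 and 306000 CPM and then 157000 and 176000 CPM. MT-CO1, a core subunit of cytochrome oxidase, read 105000 and 99000 CPM and then 49800 and 52300 CPM. MT-ND5, of complex I, fell from 10400 and 9970 CPM to 4940 and 2860 CPM. Of the 40 nuclear-encoded complex I genes 1 was called lower (median -0.65, -0.18 with total counts alone), but 12 were called lower without library 2 and 1 without library 1, and the sums were 9180 and 12000 CPM at 8 hpi against 15800 and 15700 CPM. In complex II 1 of 5 was called lower (median -0.61), in complex III 0 of 15 were called (-0.34), in complex IV 1 of 21 was higher and 1 lower (-0.44), and in complex V 0 of 20 were called (-0.46). With total counts alone those of complexes III, IV and V turned to 0.13, 0.03 and 0.01, and without library 2 complexes III, IV and V had 2, 2 and 3 members lower.

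Fuel oxidation genes fell with no member called higher. In fatty acid oxidation 10 of 40 were called lower (median -0.62, 4 lower with total counts alone). CPT1B, the gate for fatty acids into muscle mitochondria, fell from 183 and 188 CPM to 80.9 and 80.9 CPM (-1.20 ± 0.07), ucp3, a mitochondrial uncoupling protein, from 102 and 102 CPM to 12.7 and 12.8 CPM, and PDK2 (ENSDARG00000059054), which restrains pyruvate dehydrogenase, from 496 and 479 CPM to 83.7 and 91.4 CPM. In the TCA cycle 7 of 31 were called lower, but 2 without library 1, and with total counts alone 2 were higher and 1 lower. MDH1 (ENSDARG00000017772), a malate dehydrogenase, fell from 1990 and 1940 CPM to 777 and 1030 CPM (-1.12 ± 0.08), and to -0.93 without library 1.

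Glycolytic genes were called in both directions, 8 of 38 higher and 6 lower, with a median of -0.01. The share called was 36.8%, beside 30.5% of all genes tested, and the share higher 21.1%, beside 17.5%, so the list lay near all genes. With total counts alone the median was 0.47, with 11 higher and 4 lower. HK2 (ENSDARG00000101482), the hexokinase that traps glucose, rose from 3.16 and 3.66 CPM to 137 and 150 CPM (5.39 ± 0.12, adjusted p = 2.4e-33). slc2a3a, a glucose transporter, went from 0 to 9.17 and 8.09 CPM, at least 28-fold higher, and slc2a3b from 5.50 and 4.05 CPM to 52.8 and 64.0 CPM. SLC2A1 (ENSDARG00000007412), another glucose transporter, read 50.5 and 16.0 CPM at 8 hpi against 8.75 and 8.99 CPM, and fell under the fold cutoff at 0.86 without library 1. The other gene listed as SLC2A1, ENSDARG00000001437, fell from a mean of 2.66 CPM uninjured to 0.0335 CPM at 8 hpi. GPI (ENSDARG00000103826), phosphoglucose isomerase, fell from 662 and 636 CPM to 167 and 181 CPM (-1.90 ± 0.07). PKM (ENSDARG00000099860), a pyruvate kinase, fell from 295 and 282 CPM to 44.6 and 45.3 CPM. Of the phosphofructokinases, PFKL rose from a mean of 0.898 CPM to 4.22 CPM, while PFKM (ENSDARG00000014179) fell from 33.8 CPM to 11.7 CPM. The direction thus did not follow the order of the steps. LDHA, lactate dehydrogenase, changed by 0.50 ± 0.06, from 1490 and 1440 CPM to 2150 and 2010 CPM. In the pentose phosphate pathway, which makes NADPH, 3 of 9 rose, among them PGD, phosphogluconate dehydrogenase, from 43 and 39 CPM to 145 and 182 CPM (2.01 ± 0.09), and 2 fell.

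Hypoxia-inducible factors and their targets moved in both directions, with 12 of 47 called higher and 8 lower (median 0.13). With total counts alone 17 were higher and 6 lower (median 0.61). On the TMM scale 42.6% were called, beside 30.5% of all genes tested, and 25.5% were higher, beside 17.5%. Targets that rose were EGLN3, the oxygen-sensing prolyl hydroxylase, from 11.1 and 11.9 CPM to 83.4 and 94.8 CPM (2.95 ± 0.11), NDRG1 (ENSDARG00000032849) from 21.9 and 15.3 CPM to 135 and 149 CPM, and PFKFB3, an activator of glycolysis, from 28.5 and 30.6 CPM to 87.8 and 84.9 CPM. VEGFA (ENSDARG00000034700) read 326 and 311 CPM and then 339 and 342 CPM and was not called. Of the factors themselves, hif3a (ENSDARG00000100826) fell from 204 and 193 CPM to 54.5 and 50.1 CPM (-1.92 ± 0.08, adjusted p = 1.5e-24). Both genes listed as EPAS1, HIF-2 alpha, fell as well, ENSDARG00000057671 from 212 and 233 CPM to 40.5 and 41.9 CPM, and ENSDARG00000008697 from 58.3 and 58.0 CPM to 10.4 and 8.61 CPM. HIF1A (ENSDARG00000034293) went from 262 and 251 CPM to 388 and 340 CPM, a change of 0.50 ± 0.07.

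Ribosome biogenesis genes rose in 39 of 89 and fell in 0 (median 0.88), and with total counts alone 63 were higher (median 1.35). Without library 2 at 8 hpi 2 were called lower. DKC1, the pseudouridine synthase of ribosomal RNA, rose from 13.7 and 13.5 CPM to 59.6 and 69.2 CPM (2.24 ± 0.11), and GAR1, its partner, from 14.5 and 16.7 CPM to 63.6 and 78.7 CPM. NOP56 (ENSDARG00000012820), of the methylation complex, stayed under the cutoff at 0.88 ± 0.07, from 82.0 and 79.2 CPM to 142 and 155 CPM. Proteasome genes were called higher in 7 of 46 (15.2%, beside 17.5% of all genes tested) and lower in 0, or in 17 and 0 with total counts alone. The inducible psmb13a rose from 5.09 and 4.84 CPM to 15.9 and 18.9 CPM.

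Cell cycle genes were called higher in 20 of 45 and lower in 0 (median 1.16, or 0.85 with bounds), from a low base: their sum went from 134 and 152 CPM to 190 and 203 CPM. The number called higher was 12 without uninjured library 1 and 22 without uninjured library 2, 19 without 8 hpi library 1 and 17 without 8 hpi library 2. TOP2A, which untangles replicated DNA, rose from 1.02 and 1.28 CPM to 4.75 and 5.81 CPM (2.18 ± 0.29), RRM2 (ENSDARG00000020711), which makes deoxyribonucleotides, from 6.41 and 5.53 CPM to 16.9 and 20.1 CPM, and CDK1, the mitotic kinase, from 1.02 and 1.88 CPM to 4.49 and 5.08 CPM.

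The endoplasmic reticulum stress response rose in 16 of 37 and fell in 1 (median 0.64). ERO1A, which forms disulfide bonds, rose from 13.1 and 12.4 CPM to 148 and 168 CPM (3.63 ± 0.10), and MANF, a stress-induced chaperone, from 14.5 and 14.5 CPM to 52.9 and 61.2 CPM. HSPA5, the reticulum's HSP70, rose from 226 and 238 CPM to 438 and 531 CPM (1.06 ± 0.07), under the cutoff at 0.92 without library 2. Genes of the ATF4 arm were called higher in 7 of 36 and lower in 6 (median 0.68), and with total counts alone in 20 and 5 (median 1.15). On the TMM scale 36.1% were called, beside 30.5% of all genes tested, and 19.4% were higher, beside 17.5%. Among them slc7a11, the cystine transporter, rose from 0 and 0.593 CPM to 12.2 and 13.3 CPM, whereas CHAC1, which degrades glutathione, fell from 1340 and 1320 CPM to 269 and 289 CPM (-2.25 ± 0.07), and TRIB3, a feedback pseudokinase, from 346 and 350 CPM to 54.2 and 54.8 CPM.

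Oxidative stress and iron genes were called higher in 10 of 32 and lower in 3 (40.6% called, beside 30.5% of all genes tested, and 31.2% higher, beside 17.5%). prdx1, a peroxiredoxin, rose from 1.42 and 2.37 CPM to 33.6 and 38.3 CPM (4.23 ± 0.21), and hamp, the iron hormone hepcidin, from 0.102 and 0 CPM to 3.88 and 4.56 CPM, at least 14-fold higher. In the p53 and cell death list 10 of 34 were higher and 5 lower (44.1% called and 29.4% higher, beside the same shares of all genes). fas, a death receptor, rose from 0.407 and 1.09 CPM to 3.68 and 3.75 CPM, and SESN1, a p53 target that restrains growth signalling, fell from 595 and 581 CPM to 54.2 and 47.7 CPM (-3.53 ± 0.07).

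Clock genes were called in 31 of 36, 10 higher and 21 lower (median -1.36), with sums of 2440 and 2430 CPM and then 1070 and 934 CPM. The clock is a loop in which BMAL and CLOCK drive the PER and CRY repressors and the NR1D receptors. NR1D1 fell from 154 and 148 CPM to 6.02 and 5.74 CPM (-4.68 ± 0.14), PER3 by 3.87 ± 0.14 on the log2 scale to 5.56 and 4.12 CPM, and PER2 from 121 and 120 CPM to 35.8 and 30.1 CPM. nfil3-5, a repressor of D-box genes, rose from 3.56 and 3.56 CPM to 137 and 108 CPM (5.10 ± 0.14), and BMAL1 (ENSDARG00000035732) from 0.407 and 0.0988 CPM to 9.64 and 3.24 CPM. WT called 28 of the same list, 10 higher and 18 lower. Clock time at collection and injury cannot be told apart here.

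Glucocorticoid response genes fell in 11 of 22 and rose in 2 (median -1.46), with sums of 6870 and 6810 CPM and then 2360 and 2490 CPM. FKBP5, a co-chaperone of the glucocorticoid receptor and its target, fell from 1690 and 1740 CPM to 562 and 549 CPM (-1.62 ± 0.06), LPIN1 from 154 and 155 CPM to 8.23 and 5.67 CPM, and IRS2 (ENSDARG00000037099), an insulin receptor substrate, from 57.2 and 57.8 CPM to 8.10 and 5.74 CPM. The 2 that rose were CEBPB and CRISPLD2, the latter from 0 to 0.536 and 0.736 CPM.

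Immediate early genes, induced within minutes of stimulation, were higher in the uninjured apex for 13 of 37 and higher at 8 hpi for 6 (median -0.69). NR4A3, an orphan nuclear receptor, fell from 590 and 580 CPM to 30.1 and 28.7 CPM (-4.31 ± 0.08), FOS (ENSDARG00000031683) from 185 and 172 CPM to 53.3 and 55.4 CPM, and ATF3 from 442 and 441 CPM to 49.4 and 49.1 CPM. JUNB (ENSDARG00000074378) rose from 47.1 and 44.5 CPM to 209 and 265 CPM (2.37 ± 0.09). In the heat shock list 2 of 51 were called higher and 12 lower (27.5% called, beside 30.5% of all genes tested), with a median of -0.33. With total counts alone 6 were higher and 8 lower, and the median was 0.15. hsp90aa1.1, a muscle HSP90, fell from 1270 and 1290 CPM to 34.9 and 35.3 CPM (-5.19 ± 0.08, adjusted p = 2.6e-39), and BAG3, which clears damaged sarcomere proteins, from 441 and 424 CPM to 81.8 and 64.0 CPM.

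Thyroid hormone signalling genes were called higher in 3 of 22 and lower in 2 (median -0.03), and with total counts alone in 4 and 0 (median 0.45). On the TMM scale 22.7% were called, beside 30.5% of all genes tested. THRB, the beta receptor, fell from 19.7 and 14.2 CPM to 6.83 and 5.45 CPM (-1.46 ± 0.18, adjusted p = 1.7e-09), and KLF9 (ENSDARG00000068194), a direct hormone target, from 39.1 and 43.6 CPM to 18.9 and 11.1 CPM (-1.45 ± 0.16). With total counts alone the changes were -0.98 for THRB and -0.96 for KLF9, under the fold cutoff. The paralog listed as THRA (ENSDARG00000052654) had too few counts to be tested, with 0.134 CPM in 8 hpi library 1 and 0 in the other 3. rxrga, a retinoid X receptor that partners thyroid receptors, rose from 8.75 and 8.5 CPM to 21.9 and 22.1 CPM, and SLC16A10 (ENSDARG00000020984), a hormone transporter, from 5.6 and 4.45 CPM to 15.7 and 11.7 CPM. DIO1, a deiodinase, was at 35.6 and 40.5 CPM and then 24.3 and 26.4 CPM, under the fold cutoff.

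The response was set beside WT at the same time, where 5166 genes were called. Of the thraa+/- calls 2909 were called in the same direction in WT, which is 53.5% of the thraa+/- calls and 56.3% of the WT calls, and 79 in the opposite direction. The difference between the responses, tested as an interaction in the same fit, was called for 2507 genes (14.1%), 1447 with a higher (8.11%) and 1060 with a lower (5.94%) response in thraa+/-. Of these, 942 were called in thraa+/- only, 630 in WT only, 448 in both in the same direction, 79 in opposite directions and 408 in neither. The count was 2961 without thraa+/- 8 hpi library 1 and 2311 without library 2.

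Part of the interaction lay in the starting levels. The genotypes' mean levels were compared with 0.5 CPM added to each, which draws low genes together. In 807 of the 2507 they were at least 2-fold apart in the uninjured apex alone, in 591 at 8 hpi alone, in 169 at both and in 940 at neither. SOCS3 (ENSDARG00000026611) shows the uninjured case: WT read 162 and 167 CPM before injury and 345 and 354 CPM after, against 27.4 and 27.0, then 384 and 397 CPM in thraa+/- (difference 2.75 ± 0.10). nppb was flat in WT, at 1280 and 1250 CPM and then 1260 and 1370 CPM (difference 3.23 ± 0.11). Its 8 hpi levels in thraa+/- thus lay above those of WT, and its uninjured levels far below. HK2 read 19.6 and 19.1 CPM and then 87.6 and 90.1 CPM in WT (difference 3.19 ± 0.17).

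Other genes parted at 8 hpi. il1b started level, at 0.90 and 1.66 CPM in uninjured WT, and reached 13.8 and 15.5 CPM there against 59 and 61 CPM in thraa+/- (difference 2.19 ± 0.47, adjusted p = 0.0003). MMP9 went from 7.40 and 5.51 CPM to 64.7 and 68.5 CPM in WT (difference 2.24 ± 0.21). il11a parted at both times, at 5.30 and 5.93 CPM and then 13 and 10.2 CPM in WT. krt5 (1240 and 1260 CPM at 8 hpi in WT) and MYL7 (17100 and 17000 CPM) were not called in the interaction.

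By list, the interaction was called higher for 27 of 32 macrophage markers and lower for 0, and for 14 of 21 neutrophil markers and lower for 0. Over all genes tested it was called higher for 8.11% and lower for 5.94%. WT macrophage markers summed to 1260 and 1270 CPM uninjured and 763 and 793 CPM at 8 hpi, so that the WT and thraa+/- sums moved in opposite directions. For marco WT read 43.8 and 48.9 CPM and then 31.2 and 28 CPM. Cell cycle genes were called higher for 16 of 45, TOP2A going from 2.30 and 3.23 CPM to 0.696 and 1.06 CPM in WT, and hypoxia genes higher for 18 and lower for 6 of 47. For EGLN3 WT read 69.7 and 67.6 CPM and then 54.0 and 47.1 CPM. Ribosome biogenesis genes went the other way, lower for 11 of 89 and higher for 0, with 68 called higher in WT. The interaction used the same 8 hpi and uninjured thraa+/- libraries as the comparison above, so it is not a separate sample of the response.

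**Figure D4:**
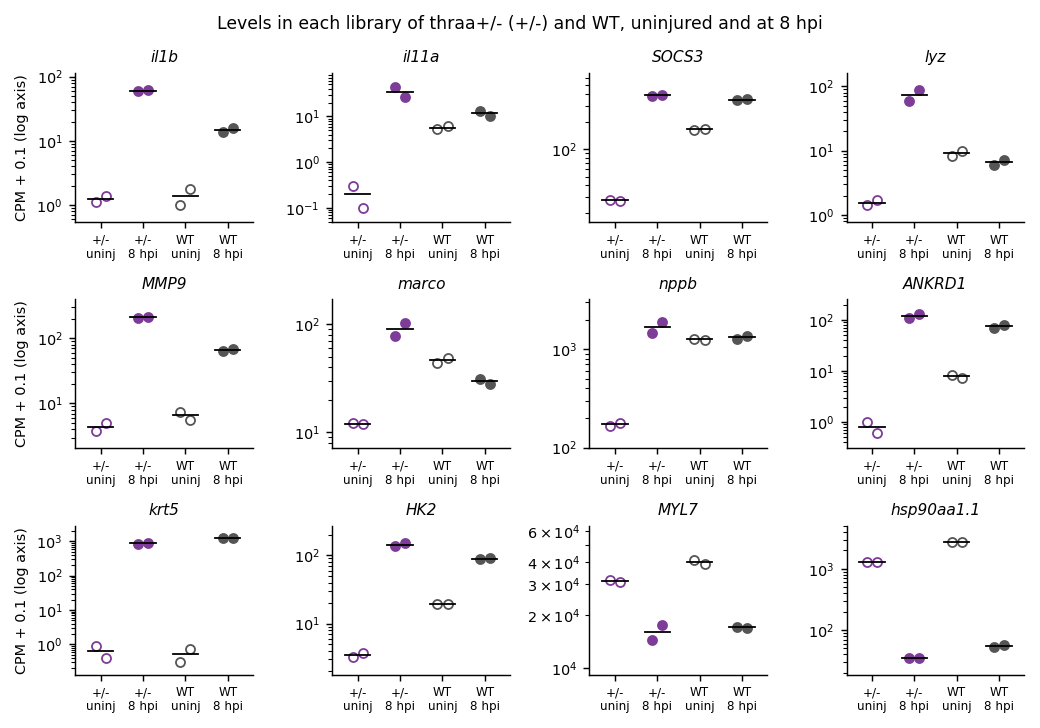
Level of 12 genes in each library, in CPM plus 0.1 on a log axis (y axis), for thraa+/- (+/-, purple) and WT (grey), uninjured (open) and at 8 hpi (filled); bars are the means of 2 libraries. il1b starts level in both genotypes and ends higher in thraa+/-, while SOCS3 and nppb start lower in thraa+/-.

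Over the later times the 8 hpi levels were a peak for some genes and a start for others. Mean levels in thraa+/- of il11a were 0.102 CPM uninjured, 34.8 at 8 hpi and 13, 11.8, 8.82 and 2.33 CPM at 1, 3, 7 and 15 dpi, and lyz followed with 1.45, 72.9, 9.91, 18, 11 and 8.43 CPM. il1b read 60.2 CPM at 8 hpi, 45.3 at 1 dpi and 6.45 at 3 dpi, and HK2 143 CPM at 8 hpi and 41.6 at 3 dpi. For these genes 8 hpi had the highest mean of the 6 times.

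Others went on changing. marco read 90.1 CPM at 8 hpi and 144, 207 and 262 CPM at 1, 3 and 7 dpi, and TOP2A 5.28 CPM at 8 hpi and 56.6 CPM at 3 dpi. krt5 read 878 CPM at 8 hpi, 3130 and 3400 CPM at 1 and 3 dpi and 4.79 CPM at 7 dpi. NR1D1 stayed low, at 5.88 CPM at 8 hpi and between 6.42 and 12.9 CPM later, against 151 CPM uninjured. The summed neutrophil markers in thraa+/- were 2390 and 2770 CPM at 8 hpi, 2280 and 2290 CPM at 1 dpi and 1610 and 1600 CPM at 3 dpi. In WT they were 1270 and 1360 CPM at 8 hpi, 2100 and 2250 CPM at 1 dpi and 2490 and 2420 CPM at 3 dpi. Macrophage markers in thraa+/- were at 4090 and 4130 CPM at 3 dpi and 4100 and 4170 CPM at 7 dpi. In WT they were at 4030 and 3920 CPM at 3 dpi and 3670 and 3630 CPM at 7 dpi. These later levels are descriptions with no test.

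**Figure D5:**
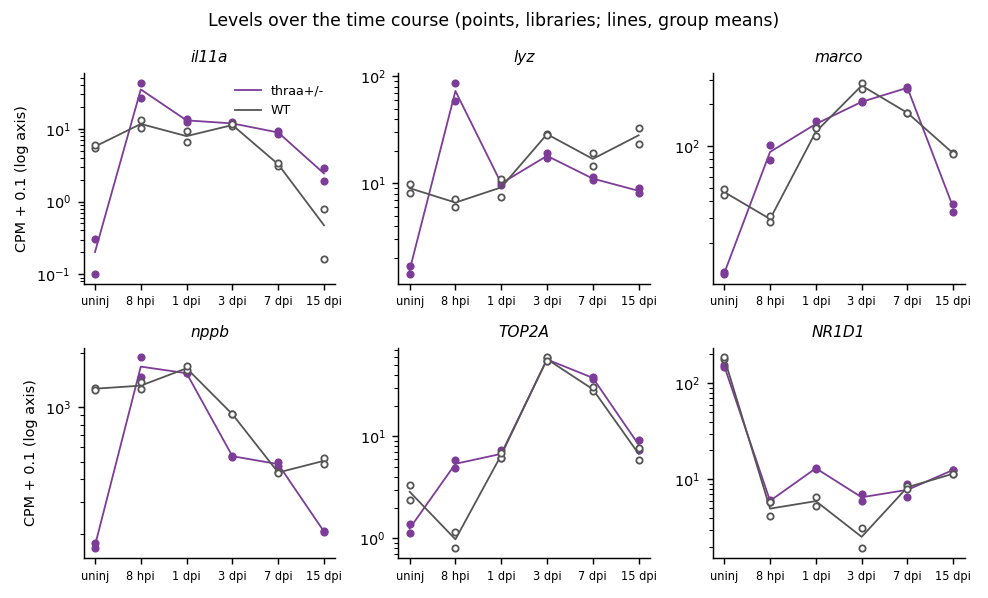
Level in CPM plus 0.1 on a log axis (y axis) of genes named in the text at 6 times (x axis, equal steps), each point 1 library, thraa+/- in purple and WT in grey, with lines through the means of 2 libraries. il11a and lyz have their highest thraa+/- mean at 8 hpi (34.8 and 72.9 CPM), while marco and TOP2A rise further at later times.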

How the data were processed

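The deposited tables, per the submitters' processing notes made with Trim Galore 0.6.10, STAR 2.7.9 and RSEM 1.3.3 on GRCz11, hold RSEM expected counts per gene and the authors' transcripts per 1000000 (TPM). Between 5.15% and 7.24% of the expected counts of a library were not whole, and all were rounded. Of 32520 genes listed, 29201 had a symbol. The 24 time-course libraries in 12 groups were fitted together in edgeR 4.0.16 under R 4.3.3 (TMM, filterByExpr, robust quasi-likelihood), with Benjamini-Hochberg adjustment over 17837 genes, and calls need adjusted p below 0.05 and a 2-fold change. In simulated counts for 8 hpi against uninjured, 97 of 100 genes changed by 1.5 on the log2 scale and 100 of 100 changed by 2 were called, with 3 false calls among the unchanged of 17837 genes. Only genes with a mean of at least 2 CPM were changed. The simulation used the spread fitted over all 12 groups and no length-dependent difference. Its rates therefore need not hold for lower genes or for the thraa+/- pair at 8 hpi, which lay further apart. Alternatives were total-count scaling, DESeq2 1.42.0, other filters, limma 3.58.1 on log2(TPM + 1) and log2(TPM + 0.1), a replicate block, fewer groups and leaving out each library. The 4 whole-heart libraries of the series were not used, and the strandedness of the counting is not given in the sources used here, so overlapping antisense genes cannot be separated.

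Named genes were the 12 largest called changes in each direction with a symbol, at least 10 CPM and no overlap, up to 4 called members of each of 46 lists in each direction, the 6 largest differences in each direction between the 8 hpi libraries, the 6 largest in each direction of the interaction, and thyroid receptors with hif3a. Other list members were chosen after their values were seen. The members and lists were chosen with earlier results of these data known. Lists can share genes, such as mmp13a among neutrophil markers and metalloproteinases, so their counts are not separate pieces of evidence. A gene with at most 3 counts in each library of a group was compared with that floor. This floor covers counting error only. A few genes that met these rules are not reported here.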

Additional observations from a re-analysis of the deposited data

Results flagged for a closer look

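The difference between the thraa+/- and WT responses at 8 hpi, tested as an interaction in edgeR, was called for 2507 genes, and the 6 largest in each direction with a symbol and at least 10 CPM in the highest group follow. Where a group was at 0 the fitted difference depends on the prior count and is no bound.

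The largest higher responses in thraa+/- were in nlrc11, nppal and il11a. nlrc11, an NLR family gene, differed by 9.93 ± 0.71, with 0 CPM in uninjured thraa+/- against 11.6 and 10.8 CPM in uninjured WT, while the 8 hpi levels were 15.7 and 15.9 CPM in thraa+/- and 22.6 and 23.0 CPM in WT. nppal differed by 8.26 ± 1.07, from 0 CPM in uninjured thraa+/- and 1.80 and 2.81 CPM in uninjured WT to levels between 85.3 and 111 CPM in the 4 libraries at 8 hpi. il11a differed by 7.29 ± 0.70. For nlrc11 and nppal the genotypes were therefore apart before injury and within 1.5-fold after it.

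CHD5, a chromatin remodeller, differed by 6.69 ± 0.42 through WT, where it went from 45.2 and 40.8 CPM to 0.278 and 0.707 CPM, while thraa+/- stayed at 6.11 and 4.55 CPM and then 6.89 and 5.81 CPM. map1lc3cl, an LC3-like gene, differed by 6.22 ± 0.47, reaching 27.3 and 29.7 CPM in thraa+/- at 8 hpi against 2.09 and 1.84 CPM in WT. lyz differed by 6.09 ± 0.40, with WT at 8.10 and 9.78 CPM and then 5.98 and 7.07 CPM.

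The lower responses included genes with no count at 8 hpi in thraa+/-. FIBIN differed by -9.96 ± 0.62, with WT at 31.1 and 26.7 CPM and then 17.4 and 15.2 CPM. mhc2dab differed by -7.13 ± 0.82, with WT going from 76.0 and 68.2 CPM to 3.34 and 4.1 CPM. GGACT differed by -7.73 ± 1.06 (ENSDARG00000038248) and -5.90 ± 1.39 (ENSDARG00000070581). ITGA10 differed by -6.02 ± 0.50, at 0.0669 and 0.368 CPM in thraa+/- and 6.75 and 7.00 CPM in WT at 8 hpi. SLA (ENSDARG00000100287), an adaptor named for its likeness to Src, differed by -9.21 ± 1.12, and was at 0 in uninjured WT and at 6.72 and 7.02 CPM in uninjured thraa+/-.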

How the results depend on the processing

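Against 5435 calls (3130 higher, 2305 lower), total counts alone gave 4954 higher and 1220 lower. A minimum of 10 counts in every library gave 2864 (1533 higher, 1331 lower) of 10990 genes tested, and adjusted p alone 9637 (4975 higher, 4662 lower). limma on log2(TPM + 1) gave 3117 with 642 lower, and on log2(TPM + 0.1) 1178 lower. A fit of the compared groups alone called 4547 of 14404 genes tested, 4493 of them in common in the same direction. For the interaction (2507), limma on log2(TPM + 1) gave 1450 (884 higher, 566 lower). The compared groups alone gave 2004 with 706 lower, and adjusted p alone 4913 (2710 higher, 2203 lower). DESeq2 gave 5314 and 2464, and leaving out each library 4895 to 5388 and 2183 to 2961. The TMM factors were 0.679 and 0.693 in the uninjured thraa+/- libraries and 1.027 and 0.888 at 8 hpi, and scaling by total counts alone leaves them out. Why the factors differed, and what moved the counts with limma, was not tested.

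The replicate numbers did not pair uninjured with 8 hpi thraa+/- samples, whose deviations correlated at 0.00989. Between WT and thraa+/- at 8 hpi they correlated at 0.345, the only pair of groups of 66 above 0.1 (median 0.000518). Libraries of the same number thus shared part of their difference at 8 hpi, and the interaction took them as unpaired. With a replicate block 5406 genes were called, 5384 of them in common in the same direction, and 2511 in the interaction. The block is the same for all groups, so it cannot take up a difference confined to 8 hpi.

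Signs turned in genes near 0 or apart between the 8 hpi libraries. Without 8 hpi library 1 and without library 2, UGP2 was -2.57 and 0.55, F2R -1.06 and 0.82, OST4 0.67 and -0.38, RPS29 0.48 and -0.51, STK19 0.40 and -0.86 and cd79b 6.56 and 0.00, and hbaa1 was -0.21 without library 2. With total counts alone UGP2 was 0.25 and STK19 0.34, and STK19 was 0.16 and 0.23 with limma (added 1 and 0.1) and 0.12 without uninjured library 1. thraa was -0.09 and -0.12 with limma, and between -0.16 and 0.37 with a library left out. Of the other alternative values for named genes and lists, 4658 kept direction and side of the threshold, 242 lost the call, 23 gained it and 118 list values moved by more than their limit (1.5 times for counts, the spread for medians). With total counts alone, lower calls went from 6 to 3 in the chemokine and in the provisional matrix lists, from 5 to 3 in the p53 list and from 3 to 1 in the oxidative stress list. With 2 pools a group, genes near the 3-count floor are read only as bounds.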
